A study of Mus musculus with 14 samples.

Results

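Untreated mouse embryo fibroblasts (MEFs) that lack p53 were compared with untreated wild-type MEFs. The question of this comparison, per the series' design text, is which genes p53 regulates in cells given no damaging agent. It rests on 5 RNA libraries, 2 from p53-null and 3 from wild-type cells, chosen by the untreated label and the genotype label from 10 RNA libraries in a series of 14 samples. All cells were of strain 129/Sv and were grown in DMEM with fetal calf serum. Reads came from the 3′ ends of poly(A)-selected RNA. The other 5 RNA libraries, 2 p53-null and 3 wild-type, came from cells given doxorubicin, a topoisomerase II poison that breaks DNA, at 0.2 µg/ml for 6 h, and are used here to see which untreated differences recur. The labels state neither the allele that removes p53 nor whether replicates came from separate embryos or cultures, and the p-values therefore reflect variation among these particular samples, which may be technical.

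p53 is a transcription factor that is kept at low levels in unstressed cells by MDM2, a ubiquitin ligase whose own gene p53 activates. Damage stabilises p53, which then activates genes for cell-cycle arrest, repair, metabolism and apoptosis. Cdkn1a, which encodes the cyclin-dependent kinase inhibitor p21, is its best known target, and p21 in turn keeps the RB-family proteins active, which hold down E2F and mitotic genes. In primary fibroblasts in culture, the p53 and p19ARF pathway also drives senescence.

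Levels are given as CPM, a gene's reads scaled by the library total after that total was adjusted by trimmed means of M values. They are therefore not plain shares of a library's reads. They are listed for p53-null libraries 1 and 2 and then wild-type libraries 1, 2 and 3. Folds are log2 values of CPM plus 0.5, p53-null minus wild type, with the standard error (SE). The median fold over all genes tested was 0.07 with the adjusted totals and 0.433 with library size alone. Adjusted p-values are from limma with Benjamini-Hochberg adjustment over all 11090 genes tested, and a gene was called when this p was under 0.05. Adding 0.5 CPM understates the change of genes near that level. Because reads come from 3′ ends and are not divided by a length, levels are compared between libraries and not between genes.

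Depth over the listed genes was 18099475 and 18698205 reads in p53-null cells, against 9767564, 11701249 and 10032198 reads in wild-type cells. Every p53-null library was thus deeper than every wild-type library, and counts with all libraries thinned to the shallowest total are given with the count over all genes. All 15 fibroblast markers were detected in the 5 libraries, and 5 of them were higher and 2 lower in p53-null cells. These are shares of 33.3% and 13.3%, beside 19.8% and 12.7% of all genes tested. Libraries of the same genotype were not of the same make-up. Summed reads of 7 Y-linked genes stood at 9.77 and 9.76 CPM in p53-null cells, against 19.6, 0 and 0.222 CPM in wild-type cells. Xist, the RNA that silences an X chromosome in female cells, separated the genotypes, with 1.03 and 0.672 CPM in p53-null cells, against 9.68, 7.79 and 17.9 CPM in wild-type cells (fold -3.11, adjusted p = 0.0155). Sex make-up thus moved with genotype as well as within it, and its part in the results was not tested. Summed CPM of 24 macrophage and blood markers was 125 and 115 in p53-null cells, against 104, 525 and 547 in wild-type cells, with the haemoglobin genes Hba-a1 and Hba-a2 at 0 in every library. Csf1r, the receptor for the macrophage growth factor, had 15.7 and 12.5 CPM in p53-null cells, against 17.1, 83.7 and 106 CPM in wild-type cells. It was not called (fold -1.90, adjusted p = 0.0911). Of 14 tested markers of this list, 10 had a fold below 0, but 0 were called lower. The 1 called, Ctss, was higher (fold 1.31, adjusted p = 0.0396) and lost its call in 14 of 19 settings. Wild-type libraries 2 and 3 thus stood apart from wild-type library 1 on the Y-linked and macrophage measures. With wild-type library 1 as the only untreated wild-type library, a setting chosen after seeing the data, 170 of 11021 genes tested were called, 139 higher and 31 lower. In bulk RNA, fewer cells of a type and less RNA per cell cannot be told apart.

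Cdkn1a had 30.7 and 29.9 CPM in p53-null cells, against 554, 760.4 and 737 CPM in wild-type cells. Both p53-null libraries were far below every wild-type library, and 28.8% of all genes tested were also lower in both. Its fold was -4.46 (SE 0.20, adjusted p = 1.01e-06), the deepest fall among the well-expressed called genes, and it was called under each of 20 alternative settings. Mdm2 had 49.9 and 48.9 CPM in p53-null cells, against 147, 193 and 226 CPM in wild-type cells, and fell by 1.90 (SE 0.29, adjusted p = 0.00286). Trp53, the gene of p53 itself, went the other way, with 67.8 and 75.6 CPM in p53-null cells, against 24.1, 25.4 and 19.9 CPM in wild-type cells. The difference of 1.62 (SE 0.30, adjusted p = 0.00593) rests on reads of the 3′ end only and is no check of a deletion in another part of Trp53. The Trp53 adjusted p was 0.0512 without p53-null library 1 and 0.0581 without p53-null library 2.

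The promoter of Cdkn1a is shown because this gene carried the deepest fall and because p53 binds DNA as paired half-sites with a CATG core. The 250 bases before each annotated start were read from RefSeq on build GRCm38.p6, which is not the build of the deposited data. They were searched for CATGNNNNNNCATG, which reads the same on both strands. This spacing was found before 1 of 2 annotated Cdkn1a starts, at chr17:29090729-29090978 on the plus strand, 48 to 35 bases before the start, and is in capitals below.
Cdkn1a: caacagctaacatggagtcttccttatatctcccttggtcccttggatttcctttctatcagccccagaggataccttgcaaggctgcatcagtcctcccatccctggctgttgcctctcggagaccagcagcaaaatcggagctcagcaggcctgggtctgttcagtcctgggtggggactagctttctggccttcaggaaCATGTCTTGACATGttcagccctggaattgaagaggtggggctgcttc
Of 27025 genes with a promoter in the table, 154 (0.57%) held these letters, and so did 1 of 46 matched p53 target genes, which was Cdkn1a. A match is a description of the letters only, and binding of p53 to them was not examined here.

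The pro-apoptotic targets Bbc3, Bax and Pmaip1 were not called in untreated cells, which does not show that their levels are equal. Bbc3, which encodes the BCL-2 antagonist PUMA, had 4.77 and 3.72 CPM in p53-null cells, against 5.55, 4.62 and 6.89 CPM in wild-type cells (fold -0.38, SE 0.31, adjusted p = 0.37). Bax, whose product permeabilises mitochondria, had 50.4 and 31.2 CPM in p53-null cells, against 47.3, 31.2 and 30.7 CPM in wild-type cells (0.15, SE 0.33, adjusted p = 0.738). Pmaip1, which encodes NOXA, was at 0.234 and 0.224 CPM in p53-null cells, against 0.118, 0 and 0 CPM in wild-type cells, too few reads to show a difference. Ccng1, which encodes cyclin G1, was below every wild-type library at 2.95 and 2.64 CPM in p53-null cells, against 4.96, 5.25 and 5.45 CPM in wild-type cells, but missed the threshold (-0.80, SE 0.31, adjusted p = 0.0711). With median-of-ratios scaling Ccng1 passed, with adjusted p = 0.0479. After doxorubicin the same 4 genes had folds of -3.29 for Bbc3, -1.02 for Bax, -2.38 for Pmaip1 and -4.05 for Ccng1, of which the Bax fold missed the threshold (adjusted p = 0.0707). As plotted for the p53 panel, the untreated genotypes separate for Cdkn1a and Mdm2, while those of Bax overlap. Such separation is common, at 64.2% of all genes tested on either side and 28.8% on the lower side.

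**Figure D1:**
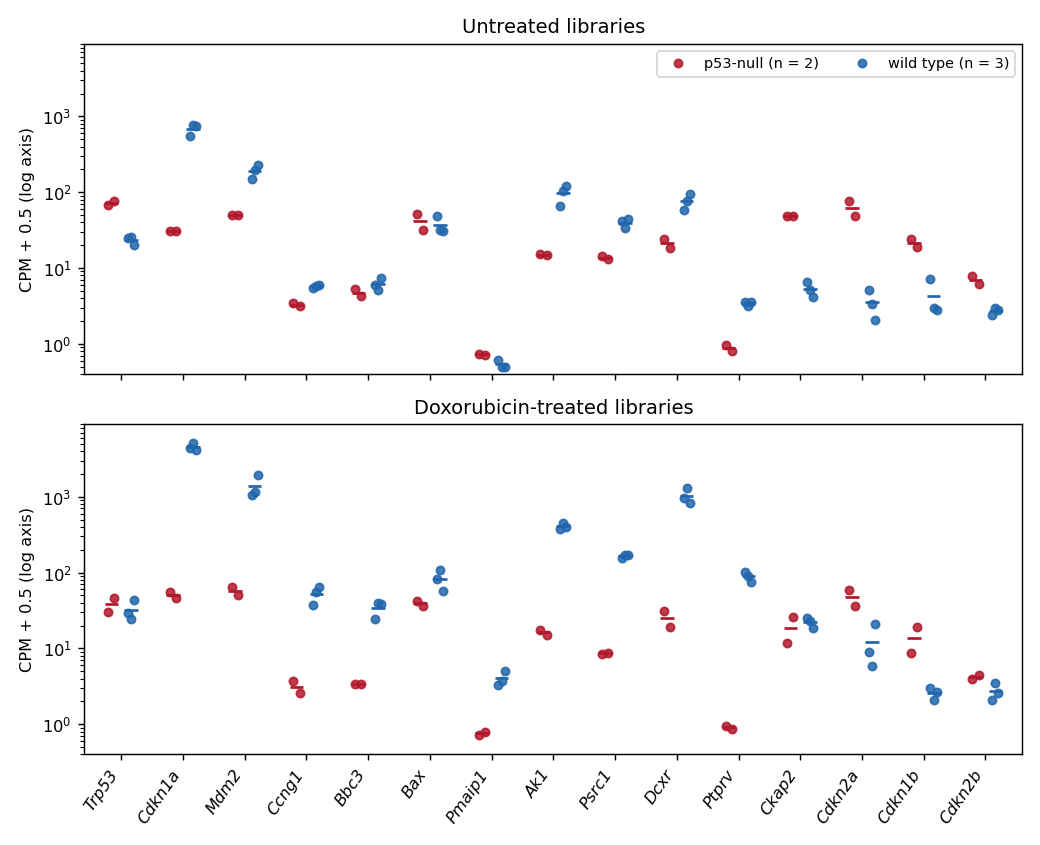
CPM plus 0.5 (log axis) of Trp53, p53 target genes and CDK inhibitor genes in each p53-null and wild-type library, untreated in the upper panel and doxorubicin-treated in the lower panel, with short bars at the group means. Untreated p53-null libraries hold about 30 CPM of Cdkn1a, against 554 to 760.4 CPM in untreated wild-type libraries, while Bax libraries of the genotypes overlap without treatment.

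Of 59 listed p53 target genes, 56 passed the filter on low values, and 13 of these (23.2%) were lower and 9 (16.1%) higher in p53-null cells. The background over all genes tested was 12.7% lower and 19.8% higher, and 32.5% in either direction. The list's median fold was -0.17, against 0.07 over all genes. With library size as the only scaling the list's median turned to 0.156, against 0.433 over all genes. The count was 8 lower and 1 higher without p53-null library 1, and 6 lower and 1 higher without p53-null library 2. Without wild-type library 2 it was 10 lower and 4 higher, and without wild-type library 3 it was 10 lower and 3 higher.

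The targets that fell after Cdkn1a and Mdm2 were led by 2 enzyme genes. Ephx1, the microsomal epoxide hydrolase gene, had 2.62 and 4.79 CPM in p53-null cells, against 37.1, 75.0 and 118 CPM in wild-type cells (fold -4.10, SE 0.69, adjusted p = 0.0043). Ak1, adenylate kinase 1, had 14.9 and 14.2 CPM in p53-null cells, against 64.7, 104 and 119 CPM in wild-type cells (-2.63, SE 0.26). Psrc1, whose product binds mitotic microtubules, had 13.8 and 12.7 CPM in p53-null cells, against 41.1, 32.9 and 43.6 CPM in wild-type cells (-1.52, SE 0.21). The genotypes' libraries did not overlap for these genes, nor for 28.8% of all genes on the lower side and 1410 of the 1411 lower calls. Ptprv, a receptor-type phosphatase gene, fell by 1.95, and Dcxr, L-xylulose reductase, fell by 1.83. Further falls were in Aen, an apoptosis-enhancing nuclease gene, at -1.67, in Abhd4 at -1.45, and in Phlda3, an inhibitor of AKT, at -1.40. Ercc5, a nucleotide excision repair endonuclease gene, stood at -1.13, Triap1 at -0.85, and Btg2, an antiproliferative gene, at -0.75. Btg2 lost its call in 13 of 20 alternative settings.

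The 9 listed targets that were higher in p53-null cells were led by Ckap2, a spindle-associated gene that is also a cell-cycle gene. It had 48.7 and 48.0 CPM in p53-null cells, against 6.02, 4.62 and 3.67 CPM in wild-type cells (fold 3.24, SE 0.35, adjusted p = 0.000516). Aldh4a1, a proline catabolism enzyme gene, rose by 1.60, and Gadd45a, a growth arrest gene, by 1.49. Thbs1, encoding the matrix protein thrombospondin 1, rose by 1.27, Trim32 by 1.17, Polk, a translesion polymerase gene, by 1.10 and Rps27l by 1.05. Prkab1, a subunit gene of AMPK, rose by 0.88. Gadd45a lost its call in 13 of 20 alternative settings and Prkab1 in 14 of 19. Of these 9 genes, none was called higher in treated p53-null cells, and Aldh4a1 was called lower there (-1.64, adjusted p = 0.0121).

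Regulators around p53 divided evenly, with 3 higher (21.4%) and 3 lower (21.4%) of 14 tested. The background was 19.8% higher and 12.7% lower. Hipk2, a kinase gene whose product phosphorylates p53, rose by 1.16 but lost its call in 11 of 19 settings, with 4.21 and 4.52 CPM in p53-null cells, against 2.36, 1.90 and 1.00 CPM in wild-type cells. Rfwd2, which encodes the ubiquitin ligase COP1, fell by 1.30, with 19.8 and 28.5 CPM in p53-null cells, against 46.0, 57.0 and 78.9 CPM in wild-type cells. Among CDK inhibitor genes, 3 of 7 were higher and 1, Cdkn1a, was lower. Cdkn2a, the locus of p16INK4a and of p19ARF, an MDM2 antagonist, had 76.5 and 47.7 CPM in p53-null cells, against 4.60, 2.90 and 1.56 CPM in wild-type cells (fold 4.21, SE 0.55, adjusted p = 0.00155). Cdkn1b, encoding p27, had 23.9 and 18.3 CPM in p53-null cells, against 6.61, 2.44 and 2.33 CPM in wild-type cells (2.46, SE 0.47). Cdkn2b, encoding p15, rose by 1.35. The list's count without p53-null library 1, or without p53-null library 2, was 1 higher and 1 lower.

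Among 58 tested genes of G2 and mitosis, 26 (44.8%) were higher in p53-null cells, 0 were lower and 32 were not called, beside backgrounds of 19.8% higher and 12.7% lower. The median fold was 0.86. The summed level of the list did not separate the genotypes, at 2019 and 2479.9 CPM in p53-null cells, against 1808, 2476.5 and 2834 CPM in wild-type cells. Kif20b, a kinesin gene of cytokinesis, had 24.4 and 33.1 CPM in p53-null cells, against 5.55, 5.52 and 3.45 CPM in wild-type cells (fold 2.47, SE 0.39). Racgap1, a centralspindlin subunit gene, rose by 2.10, and Hmmr, whose product localises to the spindle, by 2.02. Prc1, the midzone microtubule cross-linker gene, rose by 1.70, and Kif11, the kinesin-5 motor gene, by 1.46. The pattern did not hold for every mitotic gene. Aurka, the centrosomal kinase gene, had 25.6 and 32.0 CPM in p53-null cells, against 50.6, 70.5 and 159 CPM in wild-type cells (-1.52, adjusted p = 0.067). Birc5, encoding survivin, had 26.4 and 32.6 CPM in p53-null cells, against 92.5, 80.9 and 182 CPM in wild-type cells (-1.90, adjusted p = 0.053). The list's count was 5 higher without p53-null library 1 and 2 higher without p53-null library 2, with 0 lower in each, while without wild-type library 3 it was 15 higher and 0 lower. Members called lower numbered 5 without wild-type library 1, 4 with upper quartile scaling and 3 with the replicate number as a block.

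Promoters of 3 mitotic genes that rose are shown because TTTGAA is the core of the cell-cycle homology region, a promoter element of many G2 and mitosis genes. Coordinates are of build GRCm38.p6, matches on either strand are in capitals, and Kif11 carries its match as TTCAAA, from the opposite strand. The windows are chr7:80294226-80294475 on the plus strand for Prc1, chr19:37376132-37376381 on the plus strand for Kif11 and chr8:22185820-22186069 on the minus strand for Ckap2.
Prc1: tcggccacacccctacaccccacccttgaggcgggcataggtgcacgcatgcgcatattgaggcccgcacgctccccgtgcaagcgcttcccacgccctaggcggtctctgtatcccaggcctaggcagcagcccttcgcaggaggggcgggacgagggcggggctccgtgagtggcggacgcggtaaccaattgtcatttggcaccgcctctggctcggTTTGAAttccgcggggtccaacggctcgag
Kif11: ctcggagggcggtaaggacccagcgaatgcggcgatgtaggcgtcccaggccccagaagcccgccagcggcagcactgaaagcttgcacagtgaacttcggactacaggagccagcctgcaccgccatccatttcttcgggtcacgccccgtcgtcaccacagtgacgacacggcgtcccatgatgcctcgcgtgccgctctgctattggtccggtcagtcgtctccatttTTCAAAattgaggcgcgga
Ckap2: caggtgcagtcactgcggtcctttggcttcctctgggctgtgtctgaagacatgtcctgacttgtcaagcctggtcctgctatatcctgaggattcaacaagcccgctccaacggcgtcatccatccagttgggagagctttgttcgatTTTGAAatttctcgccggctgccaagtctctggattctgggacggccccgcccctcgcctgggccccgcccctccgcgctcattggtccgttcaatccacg
The match lay 30 to 25 bases before the start in Prc1, 19 to 14 in Kif11 and 101 to 96 in Ckap2. TTTGAA on either strand was found in 15 of 49 matched G2 and mitosis genes (30.6%) and in 7 of the 23 matched members that rose (30.4%), against 4934 of all 27025 genes (18.3%). These letters are short and the match is a description only.

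Genes of S phase moved less uniformly. Of 46 DNA replication genes tested, 9 were higher and 2 lower, shares of 19.6% and 4.35%, beside 19.8% and 12.7% of all genes. Dbf4, which encodes the activator of the CDC7 kinase, had 14.1 and 14.9 CPM in p53-null cells, against 1.89, 1.36 and 0.778 CPM in wild-type cells (fold 3.07, SE 0.36). Pola1, the primase-associated polymerase gene, rose by 2.38, and Rrm1, the ribonucleotide reductase large subunit gene, by 2.27. Rfc2, a clamp loader subunit gene, fell by 1.14. Of 17 E2F and pocket protein genes 4 (23.5%) were higher, among them E2f8 (1.93) and E2f7 (1.90), which encode the atypical repressor E2Fs. Of 16 cyclin and CDK genes 3 (18.8%) were higher, among them Ccne2, encoding cyclin E2, at 2.04, and Cdk2 at 1.16. Bard1, the BRCA1 partner gene, led the DNA repair list with 13.8 and 10.3 CPM in p53-null cells, against 0.354, 0.272 and 1.11 CPM in wild-type cells (3.61, SE 0.36), while Ddb1 (-1.07) and the base-excision polymerase gene Polb (-1.11) fell. That list had 8 higher (15.7%) and 6 lower (11.8%) of 51 tested, both shares under those of all genes. The DNA replication list had 2 higher and 0 lower without p53-null library 1, and the same count without p53-null library 2.

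Across all 11090 genes tested, 3602 were called, 2191 higher and 1411 lower in p53-null cells. Of these, 2028 were higher and 884 lower by at least 2-fold, and 34 were higher and 3 lower by at least 16-fold. The libraries of the genotypes did not overlap for any of the 2191 higher calls nor for 1410 of the 1411 lower calls, beside 35.4% of all genes on the higher side, 28.8% on the lower side and 64.2% on either. The count leaned on each p53-null library. It was 424 without p53-null library 1 and 472 without p53-null library 2, and 2156 and 1672 without wild-type libraries 2 and 3. The share of higher calls also moved with the scaling. With library size alone 3339 were higher and 517 lower, with median-of-ratios scaling 1941 and 1765, and with genes of at least 5 CPM 1357 and 1339. The direction followed the level, as the plot of fold against level shows. Genes with an average log2 CPM under 1 had a median fold of 0.58, and 562 of 2031 were higher and 39 lower. At 7 or more the median was -0.42, and 58 of 1079 genes were higher and 336 lower. It also followed the genomic span of the gene, with a median of -0.23 among the 20% of genes with the shortest spans and 0.51 among the 20% with the longest. With every library thinned to the shallowest total, 3413 genes were called, 1930 higher and 1483 lower, of which 3250 were among the 3602. Cyclic loess over level, chosen after seeing the data, called 2489, of which 1378 were higher and 1111 lower. The part of the genomic span was not tested.

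**Figure D2:**
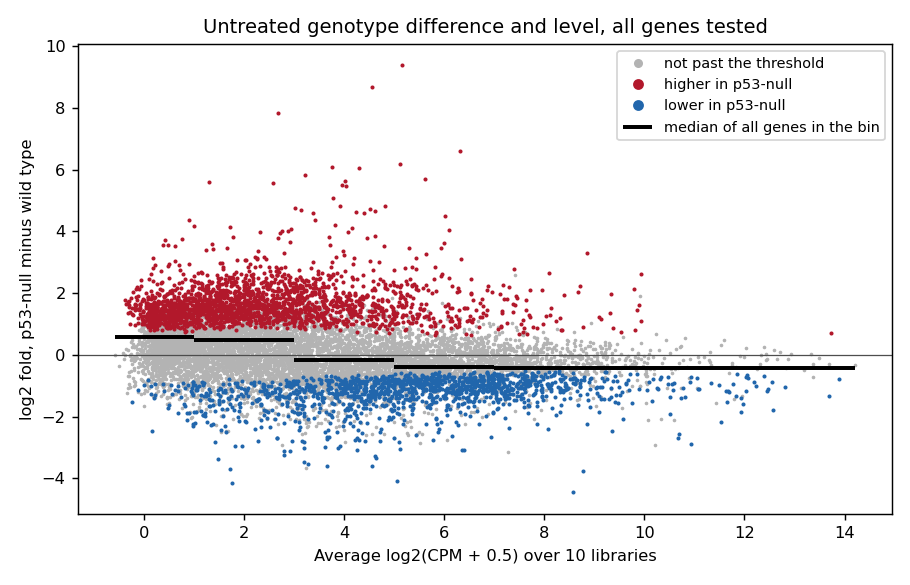
Log2 fold of untreated p53-null minus wild type (vertical axis) against average log2(CPM + 0.5) over 10 libraries (horizontal axis), with 1 point for each of 11090 genes tested. Points of low level lie above the zero line more often and points of high level below it, with medians of 0.58 under 1 and -0.42 at 7 or more.

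The genes of largest rise had at most 14.5 CPM in untreated wild-type libraries and about 102 CPM or more in untreated p53-null libraries. Tusc5, a gene studied in fat tissue, had 1666 and 2558 CPM in p53-null cells, against 2.12, 3.17 and 2.56 CPM in wild-type cells (fold 9.39, SE 0.36, adjusted p = 5.7e-07). Lyrm4, which encodes the iron-sulphur cluster factor ISD11, had 1158 and 773 CPM in p53-null cells, against 2.48, 1.36 and 1.78 CPM in wild-type cells (8.67, SE 0.32). Ifnar1, a chain of the type I interferon receptor, had 1356 and 1289 CPM in p53-null cells, against 14.5, 12.3 and 12.8 CPM in wild-type cells (6.60, SE 0.23). These genes were taken as the largest rises among called genes whose libraries do not overlap, so the gap between genotypes is no separate result. Next were Rab3b, a small GTPase of vesicle traffic, at 6.20, Efha2 at 6.10 and Sox8, a transcription factor gene of the neural crest and testis, at 6.05. AI593442 stood at 5.82, Rdh13, a retinol dehydrogenase gene, at 5.69 and Zfp26, a zinc finger gene, at 5.65. Pdcd4, which encodes an inhibitor of translation initiation, rose by 5.51, Atxn1, the ataxin 1 gene, by 5.47 and Adam22, a gene of a neuronal surface protein, by 5.09. All 12 were called under each of 20 alternative settings, and their folds in treated cells were 4.64 to 9.27.

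The genes of largest fall varied more among wild-type libraries. After Cdkn1a and Ephx1 came Rps4x, a ribosomal protein gene whose reads may be shared with near-identical copies, with 117 and 101 CPM in p53-null cells, against 1394, 818 and 2823 CPM in wild-type cells (fold -3.76, SE 0.93, adjusted p = 0.0155). Idh3g, a subunit gene of the mitochondrial isocitrate dehydrogenase, had 4.77 and 9.09 CPM in p53-null cells, against 56.9, 64.3 and 179 CPM in wild-type cells (-3.62, SE 1.02). Sod3, extracellular superoxide dismutase, had 6.31 and 4.97 CPM in p53-null cells, against 22.5, 119.7 and 88.4 CPM in wild-type cells (-3.36, SE 0.80). Polr2h, an RNA polymerase subunit gene, stood at -3.59 (adjusted p = 0.0477) and lost its call in 12 of 20 settings, and Mmp3, encoding stromelysin 1, at -3.54. Lman2l stood at -3.47, 6330578E17Rik at -3.27, Hpcal1 at -3.08 and the proton pump subunit gene Atp6ap1 at -3.08. Of the 12 falls that the rule for named genes takes, only Cdkn1a was called under each of the 20 alternative settings. When p53-null library 1 was left out, the fold of Ephx1 was -3.71 with an adjusted p of 0.0519, and that of Idh3g was -3.19 with an adjusted p of 0.148. Treated wild-type library 2 was also low in many of these genes, for instance with 1.94 CPM of Polr2h, against 27.9 and 106 CPM in treated wild-type libraries 1 and 3.

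**Figure D3:**
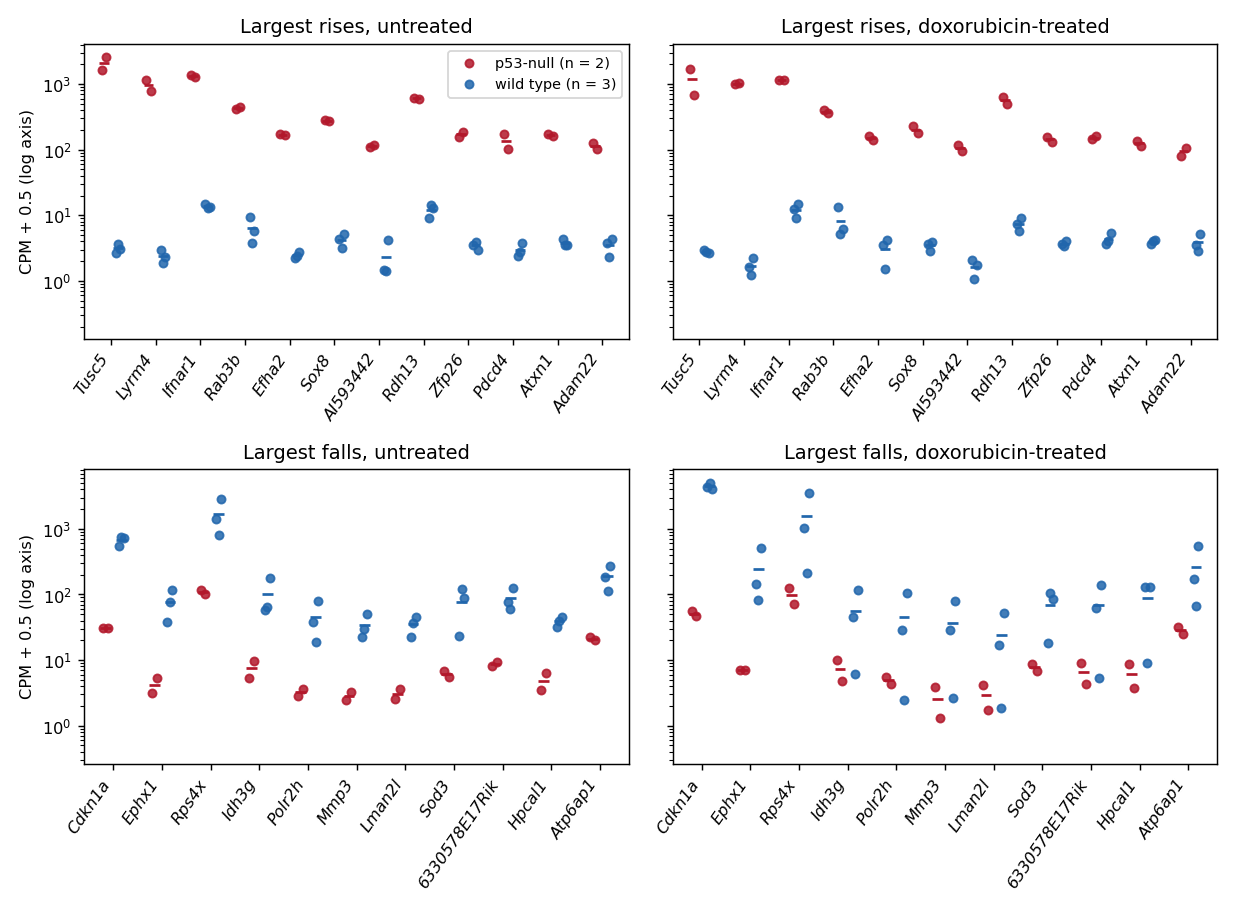
CPM plus 0.5 (log axis) of the genes of largest rise and largest fall named in the text, with 1 point for each p53-null and wild-type library, untreated and doxorubicin-treated. Tusc5 and Lyrm4 reach 773 CPM or more in untreated p53-null libraries and stay at or below 3.17 CPM in untreated wild-type libraries, while wild-type points of the falls are widely spread.

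Among 72 tested cytosolic ribosomal protein genes, 26 (36.1%) were lower in p53-null cells, 1 was higher and 45 were not called. The background was 12.7% lower and 19.8% higher. The list's median fold was -0.89, below 0 under every scaling tried. Of all genes in the 20% of shortest spans with an average log2 CPM of 7 or more, 140 of 414 were lower and 9 higher. Their median fold was -0.52. Rpl13a had 2351 and 2441 CPM in p53-null cells, against 5909, 5081 and 5426 CPM in wild-type cells (fold -1.19, SE 0.17). Rpl37 fell by 1.18 and Rps21 by 1.39. Rpl23a was the exception, with 1739.5 and 1584 CPM in p53-null cells, against 203, 154 and 153 CPM in wild-type cells (3.30, SE 0.19, adjusted p = 5.34e-06). Reads of these genes may be shared with processed pseudogenes and are uncertain in that respect. Leaving out p53-null library 1 gave 2 lower and 1 higher, and leaving out p53-null library 2 gave 7 and 1, while without wild-type library 3 it was 16 and 1. Correcting the fold for level by cyclic loess left 7 lower and 4 higher, and quantile normalization left 6 lower and 5 higher. Genes of ribosome biogenesis did not follow, with 9 higher (24.3%) and 4 lower (10.8%) of 37 tested. Among them Myc, the growth-promoting transcription factor gene, had 25.3 and 22.3 CPM in p53-null cells, against 3.54, 3.35 and 2.00 CPM in wild-type cells (2.84, SE 0.39, adjusted p = 0.00188). Rrs1 rose by 2.81, Utp18 by 2.41 and Npm1, the nucleophosmin gene, by 1.81.

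Genes of mitochondria, lysosomes and antioxidant defence held more falls than rises. Members lower were 24.3%, 19.6% and 27.8% in turn and members higher 11.4%, 13.7% and 11.1%, beside 12.7% and 19.8% of all genes. Of all genes with an average log2 CPM of 7 or more, 336 of 1079 were lower and 58 higher. Of 70 oxidative phosphorylation genes tested, 17 were lower and 8 higher, with a median of -0.31 that turned to 0.085 with library size alone. Ndufs3, a complex I subunit gene, had 99.7 and 115 CPM in p53-null cells, against 293, 291 and 310.2 CPM in wild-type cells (fold -1.47, SE 0.18), and Cox6b1, of complex IV, fell by 1.31. Of 51 lysosome genes 10 were lower and 7 higher, though 3 lower and 11 higher with library size alone. Npc2, a cholesterol carrier gene of the lysosome, fell by 1.46 and the prosaposin gene Psap by 1.11. The macrophage marker sum given above was also lower in p53-null cells than in wild-type libraries 2 and 3. Its part in the lysosome counts was not tested. Of 36 antioxidant genes 10 were lower and 4 higher, among them Gpx1, glutathione peroxidase 1, at -1.64 and the metallothionein gene Mt1 at -1.94. Sod2, mitochondrial superoxide dismutase, rose, with 60.0 and 46.0 CPM in p53-null cells, against 1.77, 2.08 and 1.33 CPM in wild-type cells (4.59, SE 0.58, adjusted p = 0.00124). Metabolic enzymes linked to p53 had 7 lower (30.4%) and 2 higher (8.7%) of 23. Without p53-null library 1 and without p53-null library 2, the oxidative phosphorylation list had 2 and 4 lower, the lysosome list 1 and 1 and the antioxidant list 2 and 4.

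Among 40 tested interferon response genes, 16 (40%) were higher in p53-null cells and 0 lower, with a median fold of 0.65, and 15 had a fold below 0. The background was 19.8% higher and 12.7% lower. The summed level of the list was 922 and 1113 CPM in p53-null cells, against 670.4, 1291 and 3179.5 CPM in wild-type cells, so wild-type libraries 2 and 3 lay above both p53-null libraries. Isg15, a ubiquitin-like modifier gene, had 77.3 and 86.4 CPM in p53-null cells, against 13.6, 16.2 and 22.2 CPM in wild-type cells (fold 2.23, SE 0.38). Both p53-null libraries lay above every wild-type library, as they did for 35.4% of all genes tested. Dtx3l rose by 2.37, the guanylate-binding protein gene Gbp3 by 2.22 and the chemokine gene Cxcl10 by 1.77. Without p53-null library 1 and without p53-null library 2 the count was 5 higher and 0 lower in each. NF-kB and inflammatory genes held 8 lower (26.7%) and 4 higher (13.3%) of 30. Icam1, an adhesion receptor gene, had 9.16 and 7.34 CPM in p53-null cells, against 30.1, 56.7 and 54.3 CPM in wild-type cells (-2.39, SE 0.35), while Cxcl12 rose by 1.45 and Ptgs2, encoding cyclooxygenase 2, by 2.02. Immediate early genes held 13 higher (32.5%) and 2 lower (5%) of 40, with Egr1 at 2.45, Dusp5 at 2.16, Fos at 1.89 and Dusp1 at 1.66. Without p53-null libraries 1 and 2 in turn, 3 and 4 immediate early genes were higher and 0 lower.

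Genes of embryonic lineage and position gave unequal counts. Of 44 mesenchymal lineage transcription factor genes tested, 17 (38.6%) were higher and 0 lower, with a median fold of 0.92. Foxd1, a forkhead gene, had 14.3 and 23.2 CPM in p53-null cells, against 3.89, 0.815 and 1.33 CPM in wild-type cells (fold 3.09, SE 0.57). En1, a homeobox gene, rose by 2.09, Meox1 by 1.87 and Zic1 by 1.74. Many of these genes are near 1 CPM in wild-type cells, in the range of levels where most calls were higher. Of 27 Hox genes 5 (18.5%) were higher and 0 lower, a share near the 19.8% of all genes, which became 0 higher and 1 lower with cyclic loess or quantile normalization. Without p53-null library 1 the lineage factors had 3 higher and without p53-null library 2 they had 0. Imprinted genes held 10 higher (40%) and 3 lower (12%) of 25. Peg12, a paternally expressed gene, had 102 and 78.5 CPM in p53-null cells, against 4.84, 5.25 and 5.45 CPM in wild-type cells (3.98, SE 0.24, adjusted p = 7.32e-06). Kcnq1ot1, an antisense RNA whose reads cannot be told apart from its host gene without strand, rose by 2.79, and Rian by 2.15. The imprinted count was 2 higher and 0 lower without p53-null library 1 and 3 higher and 0 lower without p53-null library 2.

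Matrix genes, a main product of fibroblasts, moved in both directions, with 17 higher (28.8%) and 9 lower (15.3%) of 59. The background was 19.8% higher and 12.7% lower. Fn1, encoding fibronectin, had 694 and 693 CPM in p53-null cells, against 240.3, 173 and 144 CPM in wild-type cells (fold 1.93, SE 0.30, adjusted p = 0.00318). Col1a2, a chain of type I collagen, rose by 0.91. Loxl3, a lysyl oxidase gene, fell by 1.69, Col18a1 by 1.49 and Pcolce, the procollagen C-proteinase enhancer gene, by 1.14. Timp1, the metalloproteinase inhibitor gene, had 2724 and 2522 CPM in p53-null cells, against 11298, 7772 and 8467 CPM in wild-type cells (-1.79, SE 0.22). The urokinase gene Plau rose by 2.11. S100a4, known as fibroblast-specific protein, had 522 and 551 CPM in p53-null cells, against 3559.6, 3349.9 and 3471 CPM in wild-type cells (-2.69, SE 0.29). The chaperone gene Hyou1 had 411 and 339.8 CPM in p53-null cells, against 20.7, 22.7 and 23.8 CPM in wild-type cells (4.03, SE 0.19). Smad7, an inhibitor of TGF-beta signalling, had 144 and 97.1 CPM in p53-null cells, against 7.20, 3.89 and 1.67 CPM in wild-type cells (4.83, SE 0.54). The matrix list without p53-null library 1 had 2 higher and 3 lower, and without p53-null library 2 it had 1 and 3. In the plot of gene lists, the G2 and mitosis, CDK inhibitor, interferon and imprinted lists hold 40% to 44.8% higher members and the ribosomal protein list 36.1% lower members.

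**Figure D4:**
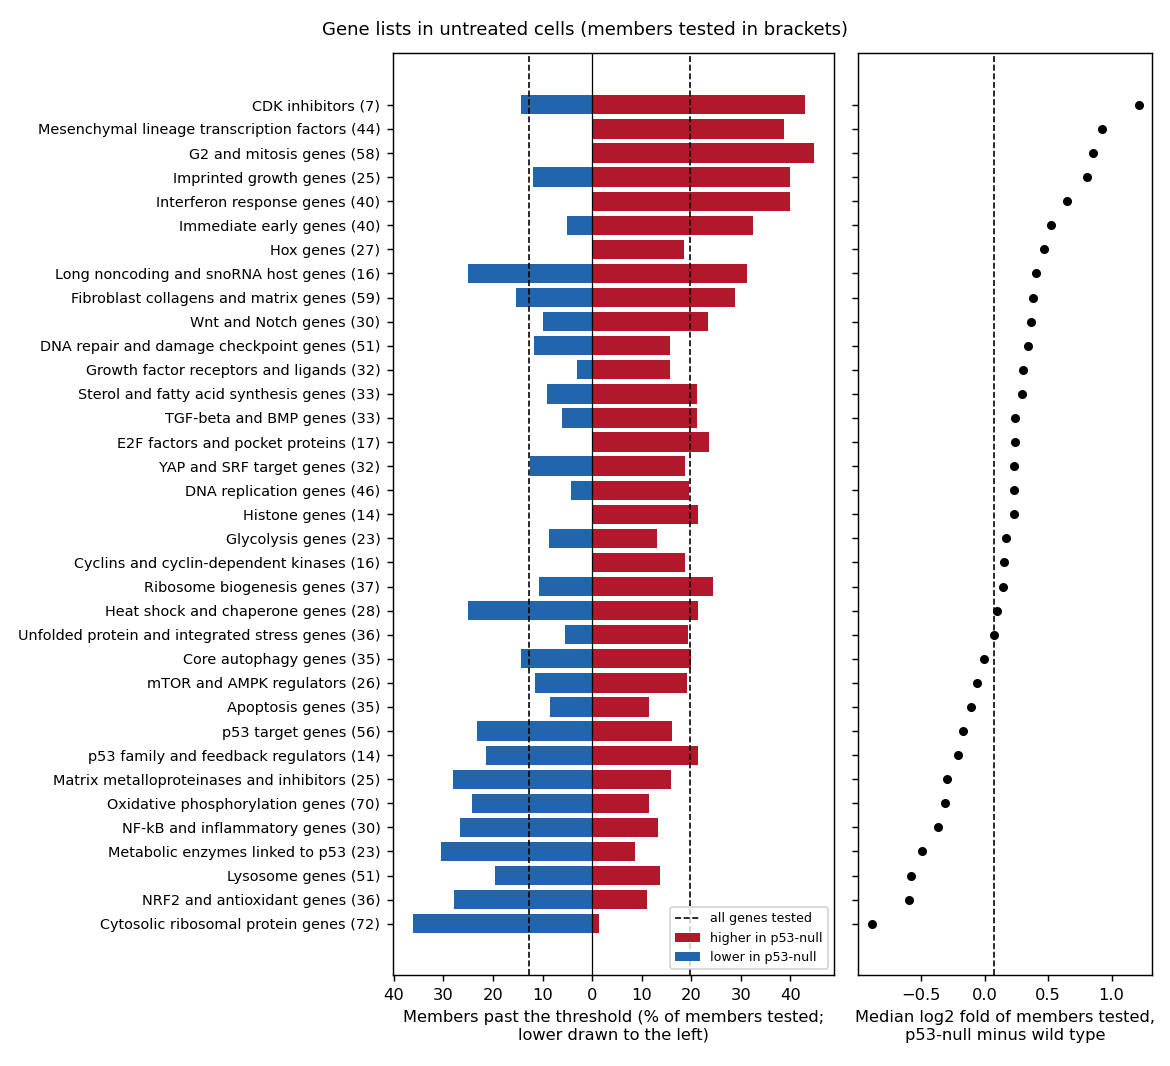
Share of tested members past the threshold (first panel, higher to the right and lower to the left) and median log2 fold of tested members, untreated p53-null minus wild type (other panel), for each of 35 pathway and identity lists, cell type markers left out. Dashed lines are the values of all genes tested, 19.8% higher and 12.7% lower in the first panel and a median of 0.07 in the other, and the ribosomal protein median of -0.89 lies furthest below it.

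The same genotypes were then compared in the doxorubicin-treated libraries, which cannot be taken as independent of the untreated ones. Deviations of same-numbered untreated and treated libraries from their group means correlated across genes at 0.39 in p53-null cells (2 pairs, whose deviations mirror each other) and at 0.58, 0.34 and 0.61 in wild-type cells. Of the 2191 genes higher in untreated p53-null cells, 1900 (86.7%) had a treated fold above 0, beside 53.3% of all genes tested. Of the 1411 lower genes, 1120 (79.4%) had a treated fold below 0, beside 46.7% of all genes. Called in the same direction in treated cells were 641 genes, 393 higher and 248 lower, while 24 were called in the opposite direction. The treated background was 5.64% higher and 6.47% lower. The 641 became 213 and 211 without untreated p53-null libraries 1 and 2 in turn, and 243 without treated p53-null library 2. In that last library the Xist level was 13.0 CPM, against 1.11 CPM in treated p53-null library 1. Untreated p53-null library 2 had 0.672 CPM of Xist. Summed Y-linked reads were 0.488 CPM in treated and 9.76 CPM in untreated p53-null library 2, so these same-numbered libraries differed in sex make-up.

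For 117 of the 3602 called genes, the genotype difference itself changed with doxorubicin, beside 2.26% of all genes tested. Of these, 76 were lower in untreated p53-null cells, of which 26 stood further apart after treatment and 50 had a smaller or turned gap. The test subtracts the untreated difference by which the 117 genes were first called, so smaller gaps were favoured in advance. Hspa8, encoding the chaperone HSC70, was among the 50, with folds of 0.58 in treated cells and -1.10 in untreated cells. Among the 26, Ptprv had 0.468 and 0.313 CPM in untreated p53-null cells, against 3.07, 2.63 and 3.11 CPM in untreated wild-type cells. After doxorubicin it had 0.461 and 0.358 CPM in p53-null cells, against 101, 88.8 and 74.9 CPM in wild-type cells. Its difference grew by -4.65 (adjusted p = 0.00103). Ptp4a3, a phosphatase gene, Psrc1, Ddit4l and 1700007K13Rik also stood lower in untreated p53-null cells and further apart with treatment. Cdkn1a reached 4355, 5051 and 4070.3 CPM in treated wild-type cells and stayed at 54.6 and 46.0 CPM in treated p53-null cells. The other 41 genes were higher in untreated p53-null cells, and the treated fold of 33 was below 0. Ass1, the argininosuccinate synthase gene, was of this kind, at 1.24 untreated and -1.83 treated. With the replicate number as a block the 117 became 231. They became 3 without untreated p53-null library 1 and 5 without untreated p53-null library 2, and 28 and 21 without untreated wild-type libraries 2 and 3. They became 20 and 28 without treated p53-null libraries 1 and 2, and 66 without treated wild-type library 1. In the plot of both genotype differences, Cdkn1a, Mdm2, Ak1 and Ptprv lie below the diagonal.

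**Figure D5:**
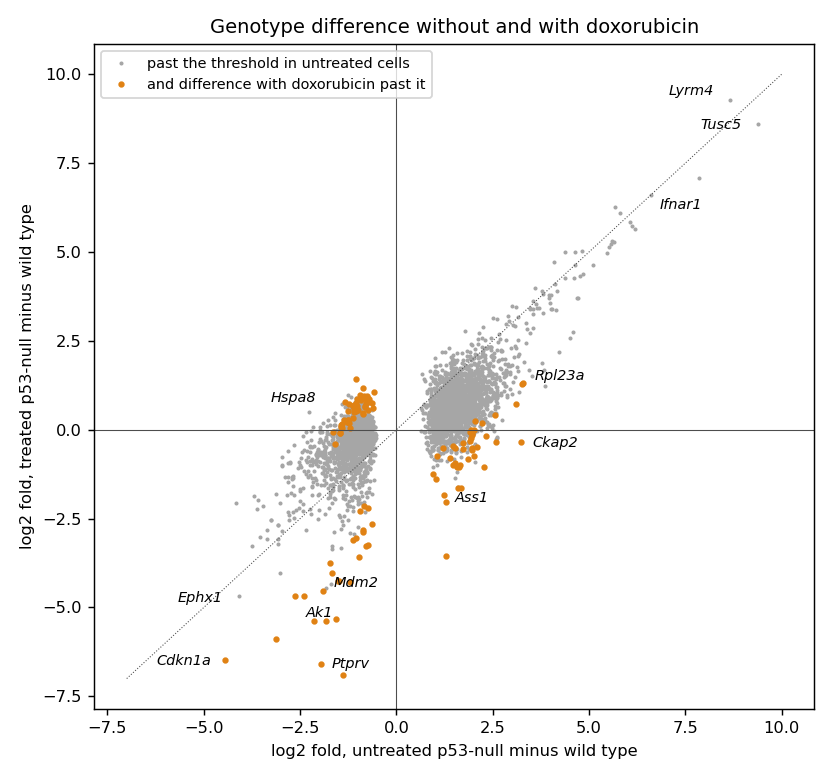
Log2 fold of p53-null minus wild type in treated cells (vertical axis) against the same in untreated cells (horizontal axis), with 1 point for each of the 3602 genes called in untreated cells, orange for the 117 whose difference changed with doxorubicin and grey for the others. The dotted line marks equal folds, and Cdkn1a lies at -6.47 treated and -4.46 untreated, Tusc5 at 8.61 treated and 9.39 untreated.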

How the data were processed

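RNA was measured in 10 libraries. Each deposited file holds 1 value per gene for 20207 gene symbols. The deposited values are scores on a variance-stabilised scale near log2, and per the submitters' processing notes the tool was DESeq, with no version, and the build mm9. Aligner, annotation and strand are not given in the sources used, and an antisense gene cannot be told from the gene it overlaps. All 10 libraries lay on 1 curve, and whole reads were recovered from its steps. Of 23356 distinct values above the starting run, 99.6% lay within 0.01 of a whole read, and the 89 others stood at 68481 reads or more. Since these reads are computed from the deposited scores, no count model was applied to them, and limma took the place of the count test first planned.

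Scaling used trimmed means of M values in R 4.3.3, with trims of 30% on the ratio and 5% on the level. A filter of 1 CPM or more in 2 or more of 10 libraries left 11090 genes. The model was limma 3.58.1 on log2(CPM + 0.5) (trend option, 1 mean per group over 10 libraries, two-sided, Benjamini-Hochberg adjustment, threshold 0.05). The fit was tested on simulated data. Depth is the sum of recovered reads, and no molecular identifiers mark duplicate reads. Chi-square per degree of freedom between libraries of 1 untreated group was 27.89 to 75.03, above the read-sampling noise of 1 library sequenced again. It does not show whether the libraries came from separate cultures or embryos. No batch is given in the labels.

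Members and gene lists were chosen with earlier results of these data known, and 46 lists were described by counts and medians with no set test. The rule for named genes took 7 p53 pathway genes, the 12 largest rises and 12 largest falls among called genes of average log2 CPM of at least 3 with libraries that did not overlap, up to 4 called members per list by p (or 2 of highest level) and the 6 smallest p-values for the difference with doxorubicin. Aen, Abhd4, Phlda3, Ercc5, Triap1, Btg2, Prkab1, Rps27l, Polk, Trim32, Thbs1, Gadd45a, Aldh4a1, Prc1, Kif11, Isg15, Fos, Col1a2, Csf1r, Tyrobp, Aurka, Birc5, Hipk2 and Rfwd2 were named after their values were seen. Promoters are from RefSeq (GRCm38.p6). The binding site list was not used here, and some genes that the rule takes are left out of the text.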

Additional observations from a re-analysis of the deposited data

Results flagged for a closer look

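These named genes are listed because the test of the genotype difference in treated minus untreated cells passed the threshold (limma, adjusted p of 0.00103 to 0.0466). A negative value means that the p53-null level fell further below wild type, or rose less above it, with doxorubicin.

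Among p53 targets already lower in untreated p53-null cells, the difference moved by -4.65 for Ptprv, -3.54 for Dcxr, -2.73 for Psrc1, -2.62 for Mdm2, -2.51 for Btg2, -2.03 for Ak1 and -2.01 for Cdkn1a. Targets that were not called in untreated cells moved by -3.26 for Ccng1, -2.91 for Bbc3 and -2.82 for Pmaip1. Outside that list the value was -5.50 for 1700007K13Rik, -3.76 for Ddit4l, -3.07 for Ptp4a3, -2.78 for Mmp15, a membrane-type metalloproteinase gene, and -2.27 for Icam1.

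In genes higher in untreated p53-null cells the lead shrank, was lost or turned, and only Rpl23a of those named here was still called higher in treated cells (fold 1.30). These genes were taken by their untreated difference, which the test subtracts, so a smaller lead was favoured in advance. The value was -3.57 for Ckap2, -3.23 for Aldh4a1, -3.07 for Ass1, -2.08 for Ddr1, a collagen receptor gene, -1.99 for Rpl23a, -1.93 for Fn1 and -1.80 for Rps27l. Hspa8, encoding the constitutive HSC70 chaperone, went the other way with 1.68, and its folds were 0.58 in treated cells and -1.10 in untreated cells. In treated p53-null cells Hspa8 had 5569 and 5529.6 CPM, against 3212, 4816 and 3311 CPM in treated wild-type cells.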

How the results depend on the processing

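Of the 197 named genes called in untreated cells, none changed direction under any of 20 alternative settings. These genes were called in the same reads. Leaving a library out can hardly turn groups that do not overlap, so this is no separate check of direction. Cyclic loess, quantile normalization and the use of wild-type library 1 as the only untreated wild-type library were chosen after seeing the data. Many calls were lost, 115 of 195 without p53-null library 1, 118 of 194 without p53-null library 2, 40 of 197 without wild-type library 3 and 157 of 197 with wild-type library 1 alone. The count of 3602 genes ranged from 424 to 3886 when each untreated library was left out in turn, and was 170 with wild-type library 1 alone. A group left with 1 library was assumed to vary like the others. The 641 genes called the same way in treated cells ranged from 211 to 818 when each library was left out, and numbered 129 with wild-type library 1 alone. The 117 genes whose difference changed with doxorubicin ranged from 3 to 162, and numbered 30 with upper quartile scaling, 73 with no filter, 61 with quantile normalization and 1 with wild-type library 1 alone. The cause was not tested beyond the smaller number of samples. Replicate numbers name the libraries but the labels do not say what they share. Deviations of same-numbered untreated libraries correlated at 0.17 and 0.25 (2 pairs), and the fit with the replicate number as a block called 3578, 658 and 231 genes in these 3 comparisons. Depth limits genes of few reads, such as Pmaip1 with 5 and 5 reads in p53-null libraries, against 1, 0 and 0 in wild-type libraries.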

Other observations

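Several smaller groups have not been described, and the background for them is 19.8% higher and 12.7% lower. Among cartilage and bone markers, 4 of 8 tested were higher and 1 lower in p53-null cells, with a summed level of 469 and 485 CPM in p53-null cells, against 372, 51.8 and 58.7 CPM in wild-type cells. Omd, encoding the bone matrix proteoglycan osteomodulin, had 5.47 and 3.94 CPM in p53-null cells, against 0.472, 0.362 and 0.222 CPM in wild-type cells (fold 2.61, SE 0.29). Nanog, a pluripotency factor gene with retained pseudogenes that may share its reads, had 5.84 and 3.81 CPM in p53-null cells, against 0.236, 0.0906 and 0.222 CPM in wild-type cells (2.94, SE 0.39). Irs1, the insulin receptor substrate gene, rose by 2.68, while Tsc2, an inhibitor of mTORC1, fell by 1.38. Insig1, a brake on sterol synthesis, rose by 2.31. Apoptosis genes held 4 higher (11.4%) and 3 lower (8.57%) of 35. Among them Cycs, encoding cytochrome c, rose by 1.39 and the survival gene Bcl2l1 fell by 1.01. Among autophagy genes Atg12 rose by 2.19 and Atg4b fell by 1.41. Without p53-null library 1 and without p53-null library 2, the apoptosis list had 0 and 1 higher and 0 lower.

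Dnm3os, a noncoding RNA antisense to Dnm3, had 1190.4 and 1257 CPM in p53-null cells, against 298, 249.6 and 243 CPM in wild-type cells (2.22, SE 0.23), and reads of the sense and antisense genes cannot be told apart without strand. Vegfa, the angiogenic growth factor gene, rose by 1.42, and Ankrd1, a target of YAP, by 1.01.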
